A study of Mus musculus with 2 samples.

Results

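The genes described here encode 10 proteins that bring long-chain fatty acids into the cell or trap them inside it: Cd36, Fabp1, Fabp2, Slc27a4, Slc27a2, Scarb1, Got2, Acsl5, Acsl3 and Cav1. They were chosen by name, with earlier results of these data known. Every probe set annotated to 1 of these symbols alone was taken. This gave 20 of the 45101 probe sets on the array and 10 of the 18194 named genes. The series holds 2 Affymetrix expression arrays of mouse intestine. The CD36KO array carried RNA pooled from 3 mice with a germline deletion of Cd36, and the WT array carried RNA pooled from 3 wild-type mice. Both genotypes were on the C57BL/6 background and ate chow freely, and RNA was taken from the upper part of the gut as a whole section, so wall, immune and epithelial cells all contributed. The deletion was present in every cell type of the CD36KO mice. No age or sex was used here.

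Fatty acids released from dietary fat reach the brush border of the enterocyte, the absorptive cell of the small intestine. Cd36 is a class B scavenger receptor of the plasma membrane that binds long-chain fatty acids, and Scarb1 is its relative that binds high-density lipoprotein. Inside the cell, the small binding proteins Fabp1 and Fabp2 carry the fatty acids, and the acyl-CoA synthetases of the Slc27 and Acsl families couple them to coenzyme A, after which they no longer diffuse back out. Cd36 is also abundant in capillary endothelium, macrophages, adipocytes and platelets, and in whole tissue these cells add to its signal.

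Each genotype was measured on 1 array, so no test was possible and no difference below can be set against the spread between animals or arrays. Values are the deposited log2 levels, and a difference is CD36KO minus WT on that scale, so that -1 is a 2-fold lower signal in the CD36KO pool. A probe set was counted as above the expression filter where its higher reading reached 4.51, a limit that 50% of all probe sets reach, and a fold of 1.5 was used to count differences. In bulk tissue, fewer cells of a type and less RNA per cell cannot be told apart.

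The windows around the transcription starts of 4 of these genes are shown because 3 of them, Cd36, Slc27a2 and Fabp1, had lower readings in the CD36KO pool, while Fabp2, the intestinal partner of Fabp1, was nearly level; these 4 were picked with their readings known. Each window runs from 250 bases before to 50 bases after a start listed by RefSeq on mouse build GRCm38.p6, and is written 5′ to 3′ along the gene. The Cd36 window lies at chr5:17835847-17836146 on the minus strand, and the others lie on the plus strand, at chr2:126552774-126553073 for Slc27a2, chr6:71199629-71199928 for Fabp1 and chr3:122894822-122895121 for Fabp2. Capitals mark matches, on either strand, to AGGTCA, the half-site that nuclear receptors read, or to its direct repeat AGGTCANAGGTCA with up to 1 mismatch, the arrangement bound by the fatty acid receptors of the PPAR family.
Cd36: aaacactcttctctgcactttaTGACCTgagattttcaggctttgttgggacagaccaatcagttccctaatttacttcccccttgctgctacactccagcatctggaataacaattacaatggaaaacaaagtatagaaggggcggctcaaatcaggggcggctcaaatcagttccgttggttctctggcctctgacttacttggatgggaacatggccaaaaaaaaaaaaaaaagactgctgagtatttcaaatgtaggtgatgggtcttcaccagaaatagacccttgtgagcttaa
Slc27a2: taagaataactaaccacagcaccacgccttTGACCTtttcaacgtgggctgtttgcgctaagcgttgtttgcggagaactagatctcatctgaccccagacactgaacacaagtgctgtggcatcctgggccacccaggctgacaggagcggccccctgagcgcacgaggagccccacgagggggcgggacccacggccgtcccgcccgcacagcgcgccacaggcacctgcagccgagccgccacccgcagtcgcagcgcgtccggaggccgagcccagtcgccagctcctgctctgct
Fabp1: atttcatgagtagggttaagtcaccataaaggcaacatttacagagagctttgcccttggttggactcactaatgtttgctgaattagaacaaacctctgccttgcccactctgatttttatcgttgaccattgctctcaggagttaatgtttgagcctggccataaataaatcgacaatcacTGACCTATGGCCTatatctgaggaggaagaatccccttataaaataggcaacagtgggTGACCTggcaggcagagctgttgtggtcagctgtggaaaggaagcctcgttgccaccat
Fabp2: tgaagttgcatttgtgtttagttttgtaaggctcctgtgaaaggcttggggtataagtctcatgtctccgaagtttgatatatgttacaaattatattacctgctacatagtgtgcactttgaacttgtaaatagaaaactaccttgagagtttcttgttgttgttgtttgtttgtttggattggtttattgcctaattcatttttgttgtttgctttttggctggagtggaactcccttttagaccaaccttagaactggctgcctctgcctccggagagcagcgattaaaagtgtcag

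The direct repeat was found in the Fabp1 window alone among the 10 windows available for 9 of the genes, at position -67 from the start and with 1 mismatch. The same search matched 0.554% of all 32851 mouse windows of this length. The half-site, which the repeat also contains, lay in the windows of Cd36, Slc27a2, Fabp1 and Got2, against 16.3% of all windows. Slc27a4 (-0.26) and Acsl5 (-0.28) had lower readings and neither motif, while Got2 had the half-site and was level at its brightest probe set (0.02). A match is a run of letters. Binding was not measured, and the relation of the motifs to the readings was not tested. The Fabp2 window held neither motif. Of 3 further elements searched on both strands, the TATA box (TATAAA) was found in Fabp1 at position -30 and in the windows of Got2 and Cav1, against 13.6% of all windows. The GC box (GGGCGG) was found in the windows of 5 genes, Cd36 and Slc27a2 among them, against 35.7% of all windows. The CCAAT box was found in those of Cd36, Fabp2, Acsl3 and Acsl5, against 37.4%.

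Of the 10 genes, 8 had lower readings in the CD36KO pool and 2 had higher ones, at the probe set with the highest mean signal per gene. The median difference of the 10 was -0.27, against a median of -0.0059 over the 11981 genes above the filter, of which 50.9% were lower. At 1.5-fold, 2 of the 10 were lower, Cd36 and Slc27a2, where 3.31% of all genes above the filter were, and 0 of the 10 were higher, where 5.31% of all genes were. Cd36 is the gene that the genotype names, and 1 of the other 9 genes passed 1.5-fold lower. Without Cd36 the median of the 9 was -0.26 and their differences ran from -0.83 to 0.49. At 2-fold, Cd36 alone was lower, where 0.626% of all genes were, and 0 of the 10 were higher, where 1.61% of all genes were. All 10 genes were above the filter on both arrays. Counted over probe sets, 6 of the 20 were at least 1.5-fold lower, 3 of Cd36, 2 of Scarb1 and 1 of Slc27a2, where 4.06% of the 22551 probe sets above the filter were, and 0 were at least 1.5-fold higher, where 6.55% were. Of the 20, 16 were above the filter, and the other 4 belonged to Got2 and Acsl3.

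**Figure D1:**
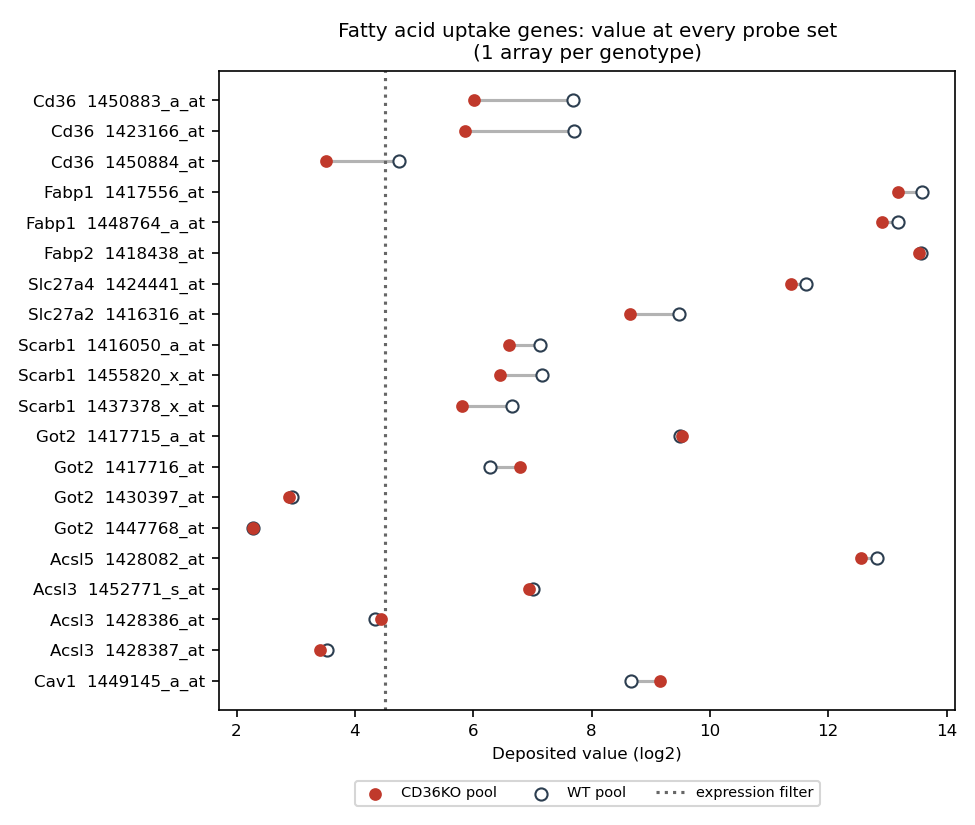
Deposited log2 value of each of the 20 probe sets of the fatty acid uptake genes (horizontal axis) in the CD36KO pool (filled red) and the WT pool (open), with the expression filter of 4.51 as a dotted line; there is 1 array per genotype and hence no error bar. The gap between the points is widest for the 3 Cd36 probe sets, and the CD36KO point lies to the right of the WT point for Got2 at 2 probe sets, Acsl3 at 1 and Cav1.

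All 3 probe sets of Cd36 had lower readings in CD36KO. Probe set 1450883_a_at read 6.02 in CD36KO and 7.68 in WT, which is 3.17-fold lower. Probe set 1423166_at read 5.87 in CD36KO and 7.70 in WT, 3.56-fold lower, and probe set 1450884_at read 3.52 in CD36KO and 4.74 in WT, 2.33-fold lower. The CD36KO reading was therefore under the filter at 1 probe set and above it at the other 2, where the CD36KO signal on the linear scale was 31.5% and 28.1% of the WT signal.
The table gives no background level for a probe set, so how much of the remaining signal is transcript cannot be told. Nor do the labels say which part of Cd36 was deleted. Where each probe set lies relative to the deleted part is therefore not known, and a remaining reading cannot by itself be used to judge the genotype.

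The Cd36 differences lay far from those of other probe sets of like level. Among the 4572 probe sets with a mean level between 6 and 7, the middle 95% of differences ran from -0.69 to 0.90, and the first 2 Cd36 probe sets stood at -1.67 and -1.83. Among the 6618 probe sets with a mean between 4 and 5 that range was -0.65 to 0.74, and the last Cd36 probe set stood at -1.22. At gene level 12 of the 11981 genes, Cd36 included, had a difference as low as that of Cd36. The 3 differences of Cd36 spanned 0.61, the smallest being that of the probe set that passed the filter through WT alone. Spans as small or smaller were found in 78.2% of the 4801 genes with several probe sets above the filter.

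**Figure D2:**
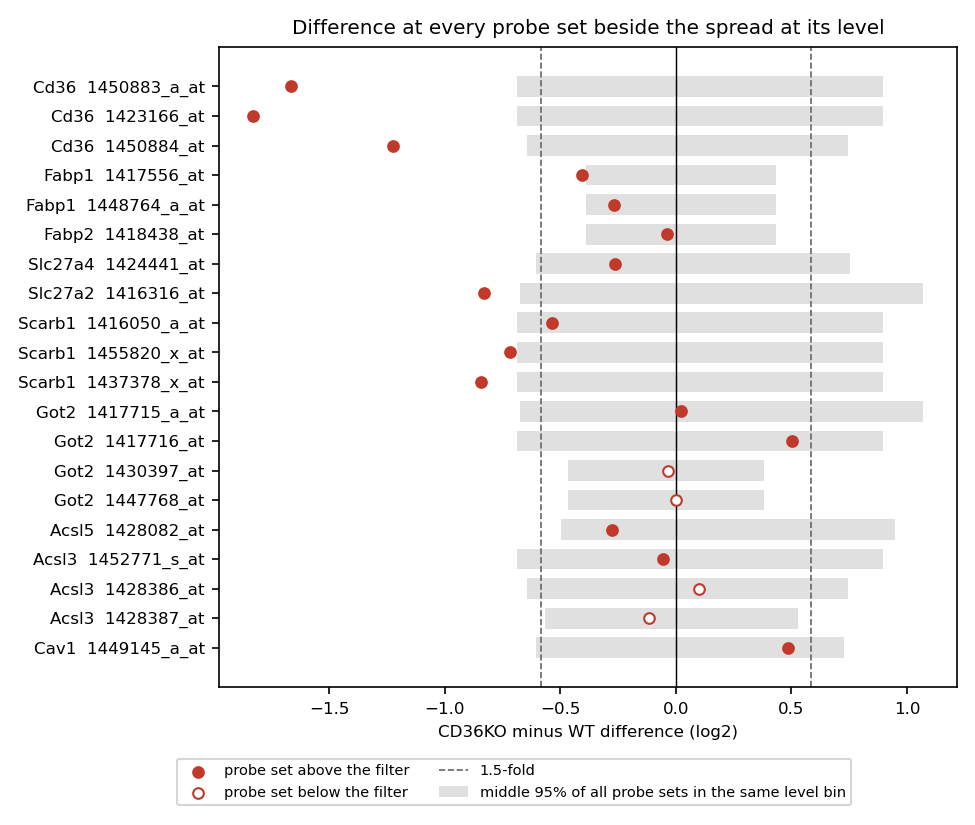
CD36KO minus WT difference (log2) of each of the 20 probe sets (points, filled where the probe set is above the filter), with the middle 95% of differences of all probe sets in the same 1-unit bin of mean level (grey bars) and the 1.5-fold thresholds (dashed). The 3 Cd36 probe sets, Slc27a2, 2 of 3 Scarb1 probe sets and 1 of 2 Fabp1 probe sets lie below their bars, and 0 points lie above theirs.

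Among markers of the other cell types that carry Cd36, those of blood endothelium and macrophages were mostly higher in the CD36KO pool and those of adipocytes mostly lower. Of 10 blood endothelial markers, 10 were above the filter and 9 were higher in the CD36KO pool, with a median difference of 0.41. At least 1.5-fold higher were 2 of them, where 5.31% of all genes above the filter were. These were Pecam1, an endothelial adhesion molecule, by 0.83 and the sialomucin Emcn by 0.83, each with a WT reading under the filter. Cdh5 was lower at -0.11, with 0.07 at a probe set below the filter, and was named after its values were seen. With the 75th percentile filter the endothelial median was 0.18 and the macrophage median 0.80. Endothelial signals summed on the linear scale came to 859 in CD36KO and 723 in WT. Of 10 macrophage markers 9 were above the filter and all 9 were higher, with a median of 0.47. Sums over all 10 were 3224 in CD36KO and 2022 in WT, and Itgam was below the filter on both arrays. The macrophage markers at least 1.5-fold higher were Cd68, by 1.71 from a WT reading under the filter, the lysozyme Lyz2 by 1.11 and the complement genes C1qc by 0.82 and C1qa by 0.80. Of 6 adipocyte markers on the array 5 were above the filter, 4 of them lower and 0 past 1.5-fold. The median was -0.16, but -0.05 with the mean over each gene's probe sets. Sums over all 6 were 1135 in CD36KO and 1193 in WT. Retn, a hormone of fat cells, was lowest at -0.41, Cidec was at -0.29 and Lipe at -0.16 (0.11 at a probe set below the filter). Fabp4 was higher at 0.22, with other probe sets from -0.24 to 0.21, and Lep was below the filter. Platelet markers numbered 4, of which 3 were above the filter with a median of 0.20 and 0 past 1.5-fold. The part of these cell types in the Cd36 reading was not tested.

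Scarb1 was lower in the CD36KO pool at all 3 of its probe sets. Probe set 1416050_a_at, which has the highest mean, read 6.60 in CD36KO and 7.14 in WT, a 1.45-fold lower signal that misses the 1.5-fold threshold. Probe set 1455820_x_at read 6.45 in CD36KO and 7.17 in WT, 1.64-fold lower. Probe set 1437378_x_at read 5.82 in CD36KO and 6.66 in WT, 1.79-fold lower. The last 2 lie outside the middle 95% of differences at their level (-0.69 to 0.90), and both carry the suffix that Affymetrix gives to probe sets whose probes may also bind other transcripts. The span of the 3 differences was 0.30, below the median span of 0.35 for the 4801 genes with several probe sets above the filter. With the mean over probe sets Scarb1 was at -0.70, past 1.5-fold.

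The genes that work beside Scarb1 in sterol traffic differed by less. Of 6 of them, all above the filter, 5 were lower, 0 passed 1.5-fold in either direction and the median difference was -0.23. Abca1, a cholesterol exporter, was at -0.40 with other probe sets between -0.16 and 0.03. The sterol exporters of the brush border, Abcg5 and Abcg8, were at -0.26 and -0.24, and Pdzk1, the scaffold that holds Scarb1 at the membrane in liver, was at -0.22.

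Fabp1 and Fabp2 are the cytosolic fatty acid binding proteins of the enterocyte. Fabp1 read 13.17 in CD36KO and 13.58 in WT at probe set 1417556_at, a 1.32-fold lower signal, and 12.90 in CD36KO and 13.17 in WT at probe set 1448764_a_at, 1.20-fold lower. Fabp2 read 13.54 in CD36KO and 13.58 in WT at its single probe set, a difference of -0.04. Fabp1 was thus lower at both probe sets, short of 1.5-fold, and Fabp2 stood at 97.4% of the WT signal. Few probe sets are this bright: 48 had a mean level between 13 and 14, and the middle 95% of their differences ran from -0.39 to 0.43, so the first Fabp1 probe set (-0.41) lay just outside that range and the second (-0.27) inside it. All 3 readings are near the top of the array's range, whose highest values were 14.1 in CD36KO and 14.2 in WT, and whether the scanner was saturated there is not recorded in the table.

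Of the other fatty acid binding proteins above the filter, 3 were higher in the CD36KO pool and 1, Fabp5, was lower. Fabp6, which binds bile acids in the ileum, read 12.92 in CD36KO and 6.25 in WT at its single probe set, a difference of 6.67 (102-fold higher). It is the family member past 1.5-fold among the 4 of 7 above the filter. Fabp4, the form of fat cells and capillary endothelium, was at 0.22 with other probe sets from -0.24 to 0.21, Fabp5, an epidermal form, at -0.21 with another probe set at 0.20, and Fabp3, the heart form, at 0.15. Fabp7, Fabp9 and Fabp12 were below the filter on both arrays.

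Slc27a4 and Slc27a2 are fatty acid transport proteins with acyl-CoA synthetase activity, Slc27a4 being the abundant form of the small intestine and Slc27a2 a form best known from liver and kidney that acts on very-long-chain fatty acids. Slc27a2 read 8.65 in CD36KO and 9.48 in WT, 1.78-fold lower at its single probe set. This difference of -0.83 lay outside the middle 95% of the 1407 probe sets with a mean between 9 and 10, which ran from -0.67 to 1.07. At gene level 137 of 11981 genes, or 1.14%, were as low as Slc27a2. Slc27a4 read 11.37 in CD36KO and 11.63 in WT, 1.20-fold lower, a difference of -0.26 that lay within the middle 95% at its level (-0.60 to 0.75). Neither gene had another probe set with which to check its value.

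Of the rest of the family, Slc27a1, the form of muscle and fat, was the member above the filter, at 5.17 in CD36KO and 5.10 in WT, a difference of 0.08 (0.27 at another probe set). Slc27a3 and Slc27a5 were below the filter on both arrays, and Slc27a6 had no probe set of its own name here. The acyl-CoA binding proteins, which take up the product of these enzymes, had a median difference of -0.28, with 5 of 6 lower and 0 past 1.5-fold. Among them Acbd5, a peroxisomal protein, was at -0.39 (-0.16 at another probe set), Acbd4 at -0.37 (-0.05 at another) and Scp2, a sterol and acyl-CoA carrier, at -0.28 with its other probe sets from -0.45 to -0.31, while Acbd3, a protein of the Golgi, was at 0.28.

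Acsl5 and Acsl3 are long-chain acyl-CoA synthetases. Acsl5, the abundant form in the intestine, read 12.55 in CD36KO and 12.83 in WT at its single probe set, 1.21-fold lower, within the middle 95% at its level (-0.50 to 0.95). Acsl3, a form of the endoplasmic reticulum and lipid droplets, read 6.95 in CD36KO and 7.01 in WT at probe set 1452771_s_at, a difference of -0.06. Its other probe sets were below the filter, at 4.44 in CD36KO and 4.34 in WT, and at 3.41 in CD36KO and 3.53 in WT, and differed in sign. The single Acsl3 probe set above the filter cannot be checked against another. Of the other synthetases, Acsl4, which prefers arachidonic acid, was at -0.41 with other probe sets from -0.33 to 0.31, and Acsl6, a form of the brain, at 0.31 with another at -0.58. Both were near the filter, and Acsbg1 and Acsbg2 were below it.

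Got2 is the mitochondrial aspartate aminotransferase, which was also isolated as a fatty acid binding protein of the plasma membrane. Its brightest probe set, 1417715_a_at, read 9.52 in CD36KO and 9.50 in WT, a difference of 0.02. Probe set 1417716_at, assigned to the same gene, read 6.79 in CD36KO and 6.28 in WT, a difference of 0.50, or 1.42-fold higher. The remaining pair was below the filter, at 2.90 in CD36KO and 2.93 in WT, and at 2.27 in both pools. The probe sets above the filter therefore disagreed by 0.48, a span as small or smaller in 65.9% of genes with several probe sets. The enzymes and carriers that form the malate-aspartate shuttle with Got2 had a median of -0.09, with 4 of 6 lower and 0 past 1.5-fold. The carrier Slc25a12 was at 0.31 with other probe sets from -0.47 to -0.08, the partner aminotransferase Got1 at 0.22, the mitochondrial malate dehydrogenase Mdh2 at -0.21 and the oxoglutarate carrier Slc25a11 at -0.10.

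Cav1, the main coat protein of caveolae, was the gene with the highest difference of the 10. It read 9.16 in CD36KO and 8.67 in WT at its single probe set, a difference of 0.49 (1.40-fold higher) that lay within the middle 95% at its level (-0.61 to 0.73). At gene level 7.53% of genes were as high. The other caveola genes were higher as well: 5 of 7 on the array were above the filter and all 5 were higher. The median was 0.41, but 0.23 with the mean over each gene's probe sets. Cav2, the partner of Cav1, was at 0.64 (1.56-fold higher) but at -0.18 at a probe set below the filter. The cavins, which build the caveolar coat with Cav1, were at 0.51 for Cavin3, at 0.41 for Cavin1 and at 0.25 for Cavin2. The other probe sets of Cavin1, below the filter, ran from -0.003 to 0.25, and those of Cavin2 from 0.53 to 1.24. Ehd2, named after its values were seen, was at 0.25 with other probe sets from -0.08 to 0.44. Caveolae are dense in endothelium and smooth muscle, and the smooth muscle markers were higher too. Of these, 8 of 8 were above the filter and higher, 5 of them past 1.5-fold, where 5.31% of all genes were. The smooth muscle markers had a median of 0.73 and summed signals of 13648 in CD36KO and 9544 in WT. With the mean over each gene's probe sets the median was 0.56, short of 1.5-fold. The lowest marker was Acta2 at 0.15, named after its values were seen. The highest of these were Myl9 (0.91), Tagln (0.84), Actg2 (0.84) and Myh11 (0.80, with 0.14 at another probe set), all of the contractile apparatus. The part of smooth muscle and endothelium in the Cav1 reading was not tested.

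**Figure D3:**
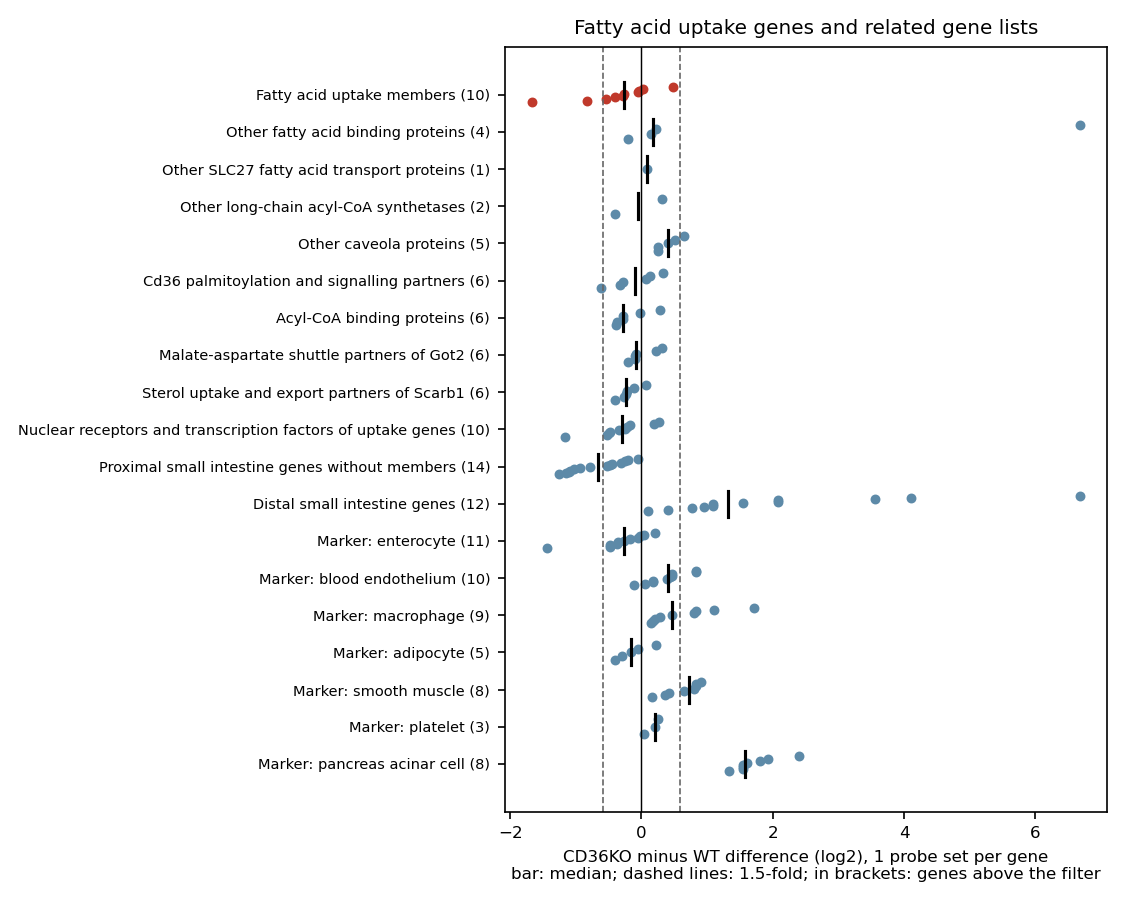
CD36KO minus WT difference (log2, 1 probe set per gene) of the genes above the filter in the fatty acid uptake group (red) and in related and marker lists (blue), with each list's median as a black bar and 1.5-fold as dashed lines. The fatty acid uptake median of -0.27 lies near that of the enterocyte markers (-0.27), between the proximal (-0.65) and distal (1.32) segment genes.

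Enterocyte markers had nearly the same median as the fatty acid uptake genes. Of 11 on the array, all above the filter, 9 were lower, 1 of them by at least 1.5-fold, where 3.31% of all genes were. The median of the markers was -0.27. Their summed signals were 60907 in CD36KO and 68650 in WT. Apob, which forms the shell of chylomicrons, was at -1.44 (another probe set at -0.45), Mttp, which loads it with fat, at -0.48, the lactase Lct at -0.48 and the brush border phosphatase Alpi at -0.37. Vil1, a structural protein of the microvilli, was level at -0.03. The 2 higher ones were the keratin Krt20 at 0.20 and the peptidase Anpep at 0.04; these and Vil1 were named after their values were seen. Beside them stand Fabp1 (-0.41), Fabp2 (-0.04), Slc27a4 (-0.26) and Acsl5 (-0.28), which enterocytes also make in quantity.

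Genes that mark segments of the small intestine also had different levels in the pools. Both segment lists were chosen with earlier results of these data known, so their counts are not independent evidence. All 14 genes of the proximal small intestine listed here, none of them a fatty acid uptake gene, were lower in the CD36KO pool. Their median was -0.65, and 7 were at least 1.5-fold lower, where 3.31% of all genes above the filter were. Some of them, such as the lactase Lct, were also counted among the enterocyte markers. The duodenal transcription factor Pdx1 was at -1.26 (-0.00 at a probe set below the filter), the calcium channel Trpv6 at -1.16, the iron exporter Slc40a1 at -1.10 (its second probe set read -0.53) and Ces1f, a carboxylesterase, at -1.09. All 12 genes of the distal small intestine were higher, 10 of them by at least 1.5-fold, with a median of 1.32. Besides Fabp6 these were led by the hormone Fgf15 (4.11), Tmigd1 (3.56) and Guca2a (2.08). Fgf15 and Slc10a2 (2.08), both counted among the 10, had WT readings under the filter and passed it through CD36KO alone. The filter removed none of the 12, and without it the median was also 1.32. Pancreas acinar markers, from an organ that lies against the duodenum, were higher in 8 of 8, with a median of 1.58. All 8 were past 1.5-fold, where 5.31% of all genes above the filter were higher by that much. Among these, the carboxypeptidase Cpa1 was at 2.40, the elastase Cela2a at 1.93, the lipase Cel at 1.81 and the trypsinogen Prss2 at 1.60. The part of segment or of neighbouring tissue in the readings of Cd36, Slc27a2, Scarb1, Fabp1, Slc27a4 and Acsl5 was not tested.

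The gap between 3′ and 5′ control signals and the hybridization controls also differed between the arrays. Signal from the 3′ end exceeded that from the 5′ end of the beta-actin control by 1.34 in CD36KO and 2.28 in WT, and for the GAPDH control by 0.71 in CD36KO and 1.28 in WT. All 18 hybridization control probe sets were lower in CD36KO, with a median difference of -0.28, against -0.0059 over the 11981 genes above the filter. The part of these in the readings was not tested.

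Regulators of fatty acid uptake genes differed in both directions. Of 10 nuclear receptors and transcription factors above the filter, 8 were lower, 1 of them past 1.5-fold, where 3.31% of all genes were. The median was -0.30, but -0.12 with the mean over each gene's probe sets and -0.04 with the least different probe set. Pparg, the fatty acid receptor of fat cells that is also made in gut epithelium, read 5.73 in CD36KO and 6.90 in WT, 2.25-fold lower at its single probe set. The duodenal and jejunal factor Gata4 was at -0.52 (0.16 at a probe set below the filter), the coactivator Ppargc1a at -0.49 with other probe sets from -0.83 to 0.02, and Hnf4g at -0.48 with others from -0.07 to 0.08. Hnf4a, a nuclear receptor of enterocyte genes, was higher at all 4 of its probe sets, at 0.26 with the others from 0.21 to 1.52. Ppara, the receptor known to act on Cd36, Fabp1 and Slc27a2 in mouse tissues, was at -0.25 with its other probe sets from -0.19 to 0.05. Ppara and Hnf4a were named after their values were seen.

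The palmitoylation and signalling partners of Cd36 differed in both directions, with 3 of 6 lower, 3 higher and a median of -0.10. Yes1, a kinase of the Src family, was at -0.61 (1.53-fold lower) but between -0.21 and -0.07 at its other probe sets, and Src was at -0.33 with 0.00 at another. Zdhhc4, which palmitoylates Cd36, was at 0.33, and Lypla1, which removes palmitate, at -0.27 with other probe sets from 0.11 to 0.18.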

How the data were processed

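Per the labels' protocols, intestinal RNA of 3 mice was pooled for each genotype, and 100 ng of it was used to make biotin-labelled cRNA. The authors deposited 1 table of log2 values for 45101 probe sets. The log2 scale follows from the values, which reach 14.2 and would exceed a 16-bit scanner as natural logarithms. How probe signals were summarized and normalized is not stated there. The column medians were 4.38 in CD36KO and 4.38 in WT.

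Probe sets were named from the array's annotation: 34958 carried 1 symbol, 932 several and 9211 none. Symbols were brought up to date through RefSeq (GRCm38.p6), where 34754 identifiers matched. A gene was represented by its probe set of highest mean, and 11981 genes had a higher reading at or above 4.51. The difference CD36KO minus WT was taken directly from the deposited values. No test was run, since each genotype has 1 array, and the number of arrays limits precision.

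Members and gene lists were chosen with earlier results of these data known. Named were all members and, per list, up to 4 genes with the largest absolute difference above the filter, besides genes listed as below the filter and a few marked as named after their values were seen. Of 159 list entries 11 had no probe set of their own symbol. Alternatives were median centring, quantile normalization, subtraction of a lowess curve (fraction 0.3), the mean or the smallest difference over a gene's probe sets, no filter or a 75th percentile filter, and a 2-fold threshold. The counting code was run on simulated data whose shifts were well beyond 1.5-fold. That run checked the code and not how well smaller differences are counted. The tools were pandas 2.3.3 on Python 3.11.15, statsmodels 0.14.6 for the lowess curve and matplotlib 3.10.9 for figures.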

Additional observations from a re-analysis of the deposited data

How the results depend on the processing

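The 3 scalings (median centring, quantile normalization and lowess) left all 60 member probe set differences on their side of 1.5-fold with 0 changes of sign, and moved them by between -0.05 and 0.03. The median of the members ran from -0.29 under quantile normalization to -0.24 with the lowess trend removed. The count of members at least 1.5-fold lower was 2, except 3 with the mean over probe sets, where Scarb1 joined, and 1 at the 2-fold threshold, where Cd36 alone was left. The count over all genes at least 1.5-fold lower was 255 with the mean over probe sets, 208 using each gene's least different probe set and 75 at 2-fold, and the count higher was 383 using each gene's least different probe set, 390 with the 75th percentile filter and 193 at 2-fold; against 396 and 636 by the settings of the report. The fall at 2-fold and under the stricter filter follows from the stricter rules. The median of the proximal genes was -0.46 and that of the Cd36 palmitoylation and signalling list 0.07 using the least different probe sets. That choice also put Got2 on a reading below the filter. No paired analysis was possible because each genotype has 1 array, and for the same reason no replicate could be left out. The table holds no background or detection calls, so the low CD36KO readings of Cd36 may hold signal that is not transcript.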
